A study of Mus musculus with 6 samples.

Results

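The genes described here are 9 genes of antigen presentation to CD4+ T cells, taken by symbol from the 32285 genes of a deposited single-cell count table: Cd74, H2-Aa, H2-Ab1, H2-Eb1, H2-DMa, H2-DMb1, Ciita, Cd86 and Cd83. All 9 were present in the table. The cells came from the sciatic nerve of C57BL6/J mice aged 23 weeks, fed either the diet labelled SD, the control, or the high fat diet labelled HFD; the labels name no transgene or deletion. Nerves were digested with trypsin and collagenase, and Anti-O4 magnetic beads were used to enrich Schwann cells, the glia of peripheral nerve. The analysis covered 364 cells in 5 libraries, 201 cells in 3 SD libraries and 163 cells in 2 HFD libraries. HFD replicate 3 of the labels was not analysed here.

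MHC class II molecules carry peptides from internalised protein to the cell surface, where CD4+ T cells read them. An alpha and a beta chain form the peptide groove, the invariant chain Cd74 fills and escorts it, and the H2-DM heterodimer swaps the invariant chain remnant for peptide. The coactivator Ciita switches these genes on together through a shared promoter module, while Cd86 and Cd83 belong to the second, costimulatory signal that a T cell needs. Resident macrophages are the main class II cells of peripheral nerve, and Schwann cells are known to express class II in some inflammatory settings.

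The 5 class II genes other than Cd74 lie together on chromosome 17 of GRCm38.p6 (the mm10 assembly), inside 197 kb between 34119693 and 34316674. Ciita (10480014 to 10531064) and Cd86 (36568956 to 36666158) are on chromosome 16, and Cd83 (43785112 to 43803133) is on chromosome 13. Promoter windows from RefSeq (GRCm38.p6, 250 bases before to 50 after the annotated start) were matched for 4 of the 9 genes. The stretch that holds the class II promoter module is shown for 3 of them, since Ciita is known to act on class II genes through it. Capitals mark GNAACT, part of the X box bound by the RFX complex, and TGATTGG, the inverted CCAAT core of the Y box bound by NF-Y.
H2-Aa, chr17:34287855-34287916, minus strand: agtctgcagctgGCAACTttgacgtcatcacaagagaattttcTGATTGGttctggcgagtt
H2-Eb1, chr17:34305764-34305824, plus strand: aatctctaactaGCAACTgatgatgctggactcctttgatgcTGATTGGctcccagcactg
H2-DMb1, chr17:34153085-34153146, plus strand: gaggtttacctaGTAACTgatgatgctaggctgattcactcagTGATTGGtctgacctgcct
These motifs were 25, 24 and 25 bases apart in H2-Aa, H2-Eb1 and H2-DMb1. The TGATTGG copy began 50, 61 and 63 bases before the annotated start. Over all 32851 windows and both strands, TGATTGG was found in 7.82%, GNAACT in 42.8%, and the pair in this order with a gap of 10 to 40 bases in 90 windows, or 0.274%. Neither of the 2 windows listed for H2-DMa held TGATTGG. A letter match is a description of the window and was not tested for function.

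Depth and cell make-up differed widely between libraries. Total counts were 296605, 154528 and 37744 UMIs (distinct mRNA molecules) in SD replicates 1, 2 and 3, and 349450 and 317297 in HFD replicates 1 and 2. The authors' table divided the cells into 5 clusters, named Macrophages, mySC, SCP, repairSC and nmSC. The cells named Macrophages numbered 143 and carried UMIs of all 15 macrophage list genes, led by Apoe. Their share of cells was 36.2%, 29.6% and 20.0% on SD against 70.2% and 39.6% on HFD, a mean of 28.6% ± 8.17 (n = 3) against 54.9% ± 21.6 (n = 2). Values after ± beside an n are standard deviations, and SD otherwise names the diet. The 2 diets did not overlap, and the exact permutation p was 0.1 (two-sided), the smallest that 3 against 2 libraries can give. In SD replicate 3, 1 cell held 85.9% of the UMIs of its 8 macrophages and 96.5% of their class II UMIs, so each macrophage value of that library is close to the value of 1 cell. No barcode occurred in more than 1 library.

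The class II genes were carried mainly by macrophages. Counting Cd74, H2-Aa, H2-Ab1, H2-Eb1, H2-DMa and H2-DMb1 together, 86.9% of 24408 UMIs lay in the cells named Macrophages. These genes made up 2.54% (SD replicate 2) to 6.6% (SD replicate 3) of the macrophage UMIs of a library. Of the UMIs of all cells of a library they made up 1.02% to 2.48%. The clusters were drawn from these genes among others, so differences between clusters are described and not tested. Levels are given as CPM, the gene's UMIs for every 1000000 UMIs of the summed cells. The 3′ protocol counts molecules at their end, so CPM were not divided by gene length.

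Cd74, the invariant chain, was at 16546, 11308 and 24484 CPM in macrophages of SD replicates 1, 2 and 3, and at 14485 and 15878 CPM in HFD replicates 1 and 2. The 2 HFD values lay inside the SD range. Cd74 UMIs were found in 120 of 143 macrophages (83.9%, median 1064 UMIs per cell). In SCP, the Schwann cluster of highest median UMIs, 7 of 60 cells held 1 Cd74 UMI each (11.7%, median 4230 UMIs per cell).

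The alpha chain H2-Aa was at 6802, 4527 and 14474 CPM in SD macrophages and 6782 and 6773 CPM in HFD macrophages. The beta chain of the same molecule, H2-Ab1, was at 7088, 4364 and 13147 CPM on SD and 6509 and 6684 CPM on HFD. H2-Eb1, the beta chain of the second mouse class II molecule, was at 7994, 4527 and 12061 CPM on SD and 6885 and 7698 CPM on HFD. All 3 chains had their lowest level in SD replicate 2 and their highest in SD replicate 3, with the HFD libraries between. Means over the 5 libraries were 7872 ± 3818 CPM for H2-Aa, 7558 ± 3298 for H2-Ab1 and 7833 ± 2727 for H2-Eb1 (standard deviation, n = 5). That spread is between libraries and does not measure differences between the genes, which were not tested.

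H2-DMa and H2-DMb1, the chains of the peptide exchange factor, were lower. H2-DMa was at 572, 406 and 241 CPM in SD macrophages and 474 and 421 CPM in HFD macrophages, and H2-DMb1 at 390, 243 and 1568 CPM on SD and 398 and 545 CPM on HFD. The 1568 CPM of H2-DMb1 in SD replicate 3 came from 13 UMIs in 1 cell. The groups overlapped for both genes. Over the 5 libraries the means were 423 ± 120 CPM for H2-DMa and 629 ± 536 CPM for H2-DMb1 (standard deviation, n = 5).

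Ciita, the coactivator of class II transcription, was the least abundant of the 9 in macrophages. It was at 34.8, 48.7 and 121 CPM in SD macrophages and 89.4 and 110 CPM in HFD macrophages, from 5, 3, 1, 20 and 16 UMIs. The value of SD replicate 3 rests on 1 UMI. Ciita was found in 26 of 143 macrophages (18.2%) and had 0 UMIs in 60 SCP cells; at so low a level this does not limit the share of SCP cells that express it.

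Cd86, a ligand of CD28 and CTLA4 on T cells, was at 272, 130 and 241 CPM in SD macrophages and 604 and 745 CPM in HFD macrophages. Both HFD libraries were above all 3 SD libraries, as they were for 14.8% of the genes tested in macrophages. Cd83, which holds class II and Cd86 at the cell surface and marks activated presenting cells, was at 1045, 876 and 603 CPM on SD and 1913 and 2262 CPM on HFD, again without overlap. The values of SD replicate 3 rest on 2 UMIs of Cd86 and 5 UMIs of Cd83. Of all Cd86 UMIs 90.4% were in macrophages, and of all Cd83 UMIs 95.2%. SCP cells held 0 Cd86 UMIs and 2 Cd83 UMIs.

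**Figure D1:**
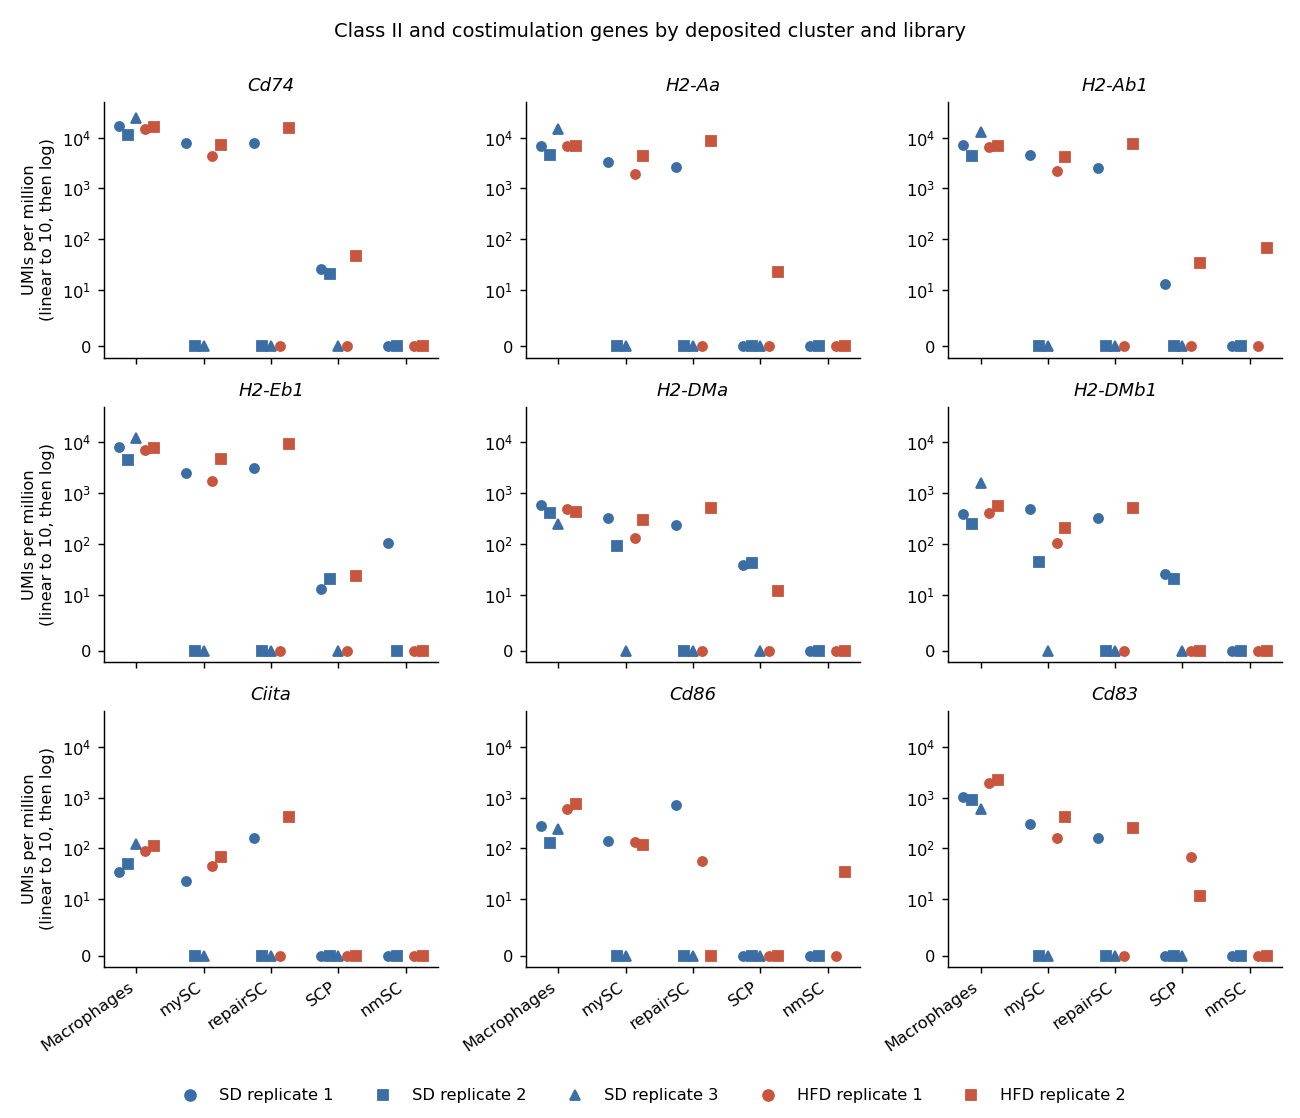
Level of each of the 9 genes (CPM, y axis linear to 10 and logarithmic above) in the 5 deposited clusters (x axis), 1 point per library, SD in blue and HFD in red. Macrophages hold all 9 genes in every library, and in mySC and repairSC 7 cells hold most class II UMIs, though not every point above 0; nmSC had no cells in SD replicate 3.

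Class II UMIs outside the cells named Macrophages came from very few cells. Of 3188 such UMIs, 3132 (98.2%) lay in 7 of 221 cells, each with 10 or more class II UMIs, and all 7 were in mySC or repairSC. The other 214 cells held 56 class II UMIs in all, at most 3 per cell and 113 CPM together. These were also low against Apoe and Lyz2: class II to Apoe was 0.202 in those cells and 1.74 in macrophages, and class II to Lyz2 was 0.434 and 4.47. The gap was smaller against the complement genes C1qa, C1qb and C1qc. Those summed to 56.6 CPM beside the 113 CPM of class II in those cells, and to 5446 UMIs beside 21220 in macrophages. Apoe was also found in 9 of 24 nmSC cells.

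The 7 cells were of 2 kinds by their other genes. In 4 of them (2 repairSC of SD replicate 1, 1 mySC of HFD replicate 1 and 1 repairSC of HFD replicate 2), 5 to 108 UMIs of the complement genes C1qa, C1qb and C1qc and 6 to 12 UMIs of the macrophage growth factor receptor Csf1r accompanied 91 to 502 class II UMIs. The other 3, all in mySC, held 807, 344 and 912 class II UMIs (6.09%, 2.23% and 4.49% of the cell) and 0 C1q and 0 Csf1r UMIs. They came from SD replicate 1, HFD replicate 1 and HFD replicate 2. These 3 cells held 22, 42 and 29 UMIs of a 14-gene dendritic cell list. In the SD replicate 1 cell they included 6 of Xcr1 and 4 of Clec9a, receptors of cross-presenting dendritic cells, and in the HFD replicate 2 cell 4 and 2. In the HFD replicate 1 cell 38 of the 42 were Cd209a, a lectin of monocyte-related dendritic cells. Myelin list UMIs in the 7 cells numbered 1 to 10, of 5134 to 20329 UMIs per cell. The deposited name mySC does not describe what these cells carry, and they are called here by their genes.

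**Figure D2:**
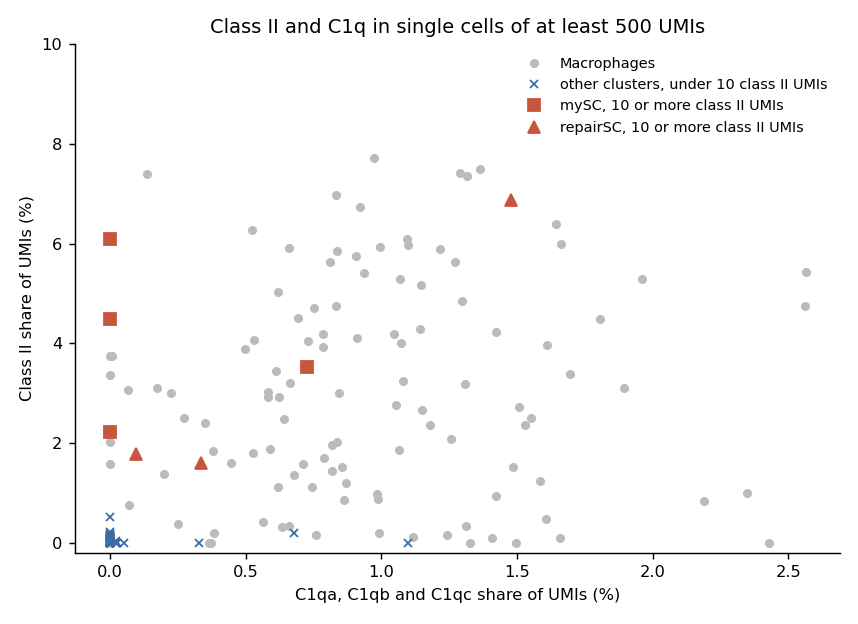
Share of each cell's UMIs from C1qa, C1qb and C1qc (x axis, %) against the share from the 6 class II genes (y axis, %), for cells with at least 500 UMIs. The 7 marked cells lie outside the Macrophages cluster, and 3 of the mySC cells sit at 0 on the C1q axis with 2.23% to 6.09% class II.

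Other genes of the pathway were read in macrophages from lists. Of 26 genes of class II processing and control found in the table, 24 had UMIs there. Those with the most were the lysosomal proteases Ctsb (772 UMIs, 1326 CPM pooled over libraries), Ctss (573 UMIs, 984 CPM) and Lgmn (318 UMIs, 546 CPM), and the myeloid transcription factor Spi1 (184 UMIs, 316 CPM). H2-Eb2 and H2-DMb2 were at 0. The RFX subunits, named here for their part in the promoter module, had few counts, with 3 UMIs for Rfx5, 10 for Rfxap and 4 for Rfxank. Of 14 further costimulatory genes 11 had UMIs, led by the CD2-family ligand Cd48 (121 UMIs, 208 CPM) and the adhesion ligand Icam1 (68 UMIs, 117 CPM). Cd80, the second ligand of CD28, had 9 UMIs, and Cd40, the receptor through which T cells license presenting cells, had 8.

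Over all cells of a library, the diet comparison asks how much of each transcript the preparation held. In it, 5 of 5510 genes (0.0907%) passed edgeR's test at an adjusted p of 0.05, none of them a member; the 5 (S100a8, S100a9, Retnlg, Stfa2l1 and Slc7a11, named after their values were seen) were higher on HFD. All 9 members had estimates above 0, with a median log2 fold change of 0.76 against 0.02 for all genes tested. By libraries, both HFD values were above all 3 SD values for H2-Aa, H2-Eb1, Ciita, Cd86 and Cd83, which is 5 of 9 members against 11% of all genes. At an unadjusted p under 0.05 there were 242 genes, 3 of them members (Ciita, Cd86 and Cd83). DESeq2 called 9 genes and 0 members.

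Over all cells, the 6 class II genes together were at 22555, 10173 and 14492 CPM in the SD libraries and 24765 and 21888 CPM in the HFD libraries. SD replicate 1 lay between the 2 HFD libraries, so the groups overlapped. Log2 fold changes were 0.73 ± 0.39 (SE) for Cd74, 0.76 ± 0.41 for H2-Aa, 0.72 ± 0.43 for H2-Ab1 and 0.83 ± 0.43 for H2-Eb1, with an adjusted p of 0.943 each. H2-DMa (0.63 ± 0.65) and H2-DMb1 (0.45 ± 0.56) did not pass either. The share of macrophages among the cells did not overlap between diets, and its part in the class II values was not tested. Macrophages held 48.37%, 39.89% and 21.97% of all UMIs in SD replicates 1, 2 and 3, and 64.01% and 45.69% in HFD replicates 1 and 2. By UMIs, SD replicate 1 again lay between the HFD libraries. SD replicate 3 was below SD replicate 2 in both shares but above it in class II, where 528 of its 547 UMIs came from 1 macrophage. More macrophages and more RNA per macrophage cannot be told apart in these sums.

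Cd86 over all cells was at 182, 51.8 and 53.0 CPM on SD and 415 and 359 CPM on HFD. The log2 fold change was 2.03 ± 0.62 (SE; edgeR adjusted p = 0.943). Cd83 was at 556, 349 and 132 CPM on SD and 1259 and 1103 CPM on HFD, a log2 fold change of 1.87 ± 0.57 (adjusted p = 0.943). Ciita was at 27.0, 19.4 and 26.5 CPM on SD and 65.8 and 75.6 CPM on HFD, a log2 fold change of 1.67 ± 0.61 (adjusted p = 0.943), from 8, 3, 1, 23 and 24 UMIs. Both HFD libraries lay above all 3 SD libraries for each of these genes, as for 11% of all genes, and none passed. The folder names of the library key hold 2 project numbers, one with SD replicates 1 and 2 and HFD replicate 1, the other with SD replicate 3 and HFD replicate 2. Within them the log2 ratio of HFD to SD was 1.83 and 2.76 for Cd86, 1.48 and 3.06 for Cd83, and 1.5 and 1.51 for Ciita, with 1 HFD library in each. With the project number as a term in the fit, Cd86 (log2 2.23, adjusted p = 0.0434) and Cd83 (2.22, 0.0119) passed and Ciita (1.68, 0.332) did not.

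Within macrophages the class II genes except H2-DMb1 (0.46 against 0.45) lay closer to 0 between diets than over all cells. Cd86 and Cd83 had estimates above 1. The fit used SD replicates 1 and 2 and HFD replicates 1 and 2, since SD replicate 3 held fewer than 10 macrophages. Of 2108 genes 1 passed (0.0474%), Il1b, lower on HFD, and 0 of 9 members passed (edgeR; 128 genes and 2 members, Cd86 and Cd83, at an unadjusted p under 0.05; DESeq2 also called 1 gene and 0 members). Cd74 differed by 0.07 ± 0.20 (log2, SE), H2-Aa by 0.20 ± 0.22, H2-Ab1 by 0.14 ± 0.23, H2-Eb1 by 0.15 ± 0.25, H2-DMa by -0.21 ± 0.34 and H2-DMb1 by 0.46 ± 0.37. The sign of the first 4 depended on SD replicate 2: without it they were -0.23, -0.11, -0.21 and -0.24. The class II level of macrophages was not shown to differ between diets in either direction.

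Cd86 in macrophages had a log2 fold change of 1.59 ± 0.39 and Cd83 of 1.05 ± 0.25 (SE; adjusted p = 0.327 each), ranks 10 and 8 by p among 2108 genes. In CPM, the 2 HFD libraries lay above all 3 SD libraries for both, as they did for 14.8% of all genes in macrophages. Leaving out SD replicate 1 (log2 2.37, adjusted p = 0.0117) or HFD replicate 1 (1.74, 0.0196) brought Cd86 past the threshold, but each of these fits sets 1 library against 2, assumes that the lone library varies like the other group, and is no support for a difference. Cd83 did not pass in any alternative in macrophages, where its adjusted p ranged from 0.0511 to 1.00. Its estimate was 0.44 ± 0.45 without the 50 macrophages holding 2 or more dendritic or B cell list UMIs, where that of Cd86 was 1.16 ± 0.62. In macrophages those lists were led by Batf3 (67 of 138 dendritic list UMIs) and Ighm (85 of 111 B cell list UMIs). A limit on counts is met more easily by deep cells, and the part of depth in these 2 estimates was not tested. In the 60 macrophages with at least 3000 UMIs, Cd86 was at 247, 95.1 and 281 CPM in SD replicates 1 to 3 (15, 7 and 1 cells) and at 630 and 757 CPM in HFD replicates 1 and 2 (23 and 14 cells). In the same cells Cd83 was at 1119, 970 and 562 CPM on SD and 1985 and 2513 CPM on HFD. In HFD replicate 2, 1 cell held 27.8% of the Cd86 UMIs (30 UMIs). Ciita had a log2 fold change of 1.24 ± 0.66 in macrophages (adjusted p = 0.842).

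**Figure D3:**
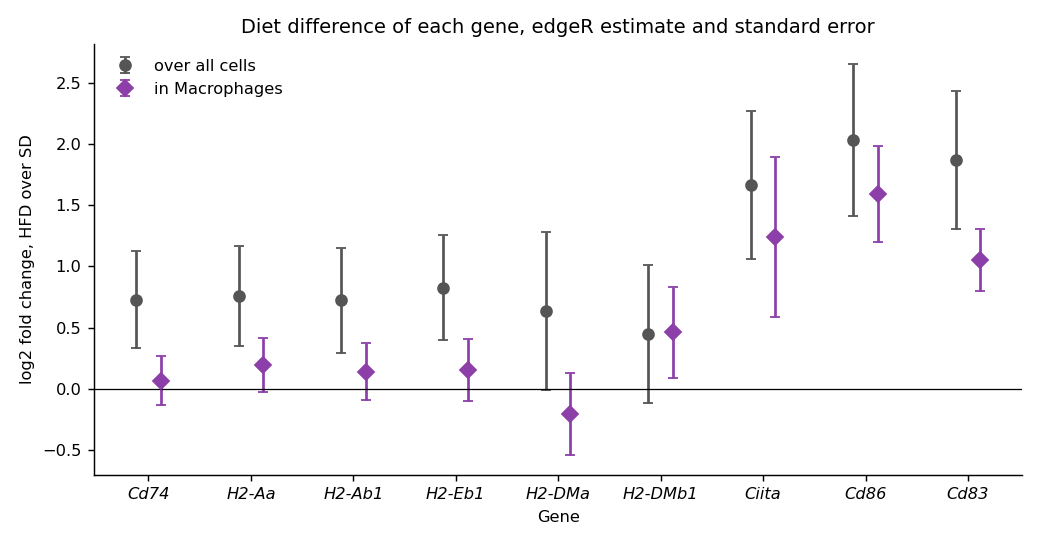
Log2 fold change of HFD over SD for each gene (y axis; points are edgeR estimates, bars 1 standard error), over all cells (3 against 2 libraries, grey) and in macrophages (2 against 2, purple). The 4 most abundant class II genes lie at 0.72 to 0.83 over all cells and at 0.07 to 0.20 in macrophages, while Cd86 and Cd83 stay at 1.05 or above in both; no point passed the adjusted threshold.

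Lists of related genes gave the following beside the members. Over all cells, 14 of 17 tested class II partner genes, 9 of 9 MHC class I pathway genes and 13 of 15 macrophage core genes had estimates above 0 (medians 0.55, 0.63 and 0.65), with none passing, and 51.7% of all genes were above 0. In macrophages, 5 of 13, 2 of 6 and 3 of 15 were above 0 (medians -0.10, -0.15 and -0.27), with none passing, against 50.4% of all genes. Dendritic cell list genes in macrophages summed to 0 to 300 CPM on SD and 124 to 317 CPM on HFD, with 7 of 14 genes at 0, Itgax, Xcr1 and Ccr7 among them. B cell list genes summed to 153 to 362 CPM and 156 to 283 CPM, with 6 of 10 genes at 0, Cd79a and Ms4a1 among them. The part of these cell types in the macrophage values was not tested.

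The spread of class II between macrophages was wide in every library that could be read. Among the 115 macrophages with at least 500 UMIs, the 6 class II genes took from 0% to 7.71% of a cell's UMIs, with quartiles of 1.15%, 2.92% and 4.60%. In 20 cells (17.4%) the share was under 0.5%. Those 20 cells had a median of 694 UMIs, and the other 95 a median of 6685. Among the 60 macrophages with at least 3000 UMIs the share ran from 0.122% to 7.71% with a median of 3.99%, and 1 cell was under 0.5%. Cells nearly without class II were mostly shallow ones, and deep cells also covered a wide range.

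Each cell was thinned to 500 UMIs, so that all cells had equal counts. Thinning does not remove the rise of the class II share with the cell's original depth, given below. The variance of class II UMIs was then set against their mean (the Fano factor, 1 for sampling noise alone). It was 9.46 and 12.7 in SD replicates 1 and 2 and 7.11 and 7.53 in HFD replicates 1 and 2. The median share per library was 3.21% and 1.26% on SD and 3.04% and 2.92% on HFD, an exact permutation p of 1 where 2 against 2 libraries cannot go below 0.333. The standard deviation of the thinned log2 share was 1.80 ± 0.02 on SD and 1.68 ± 0.17 on HFD (standard deviation, n = 2 each; exact permutation p = 0.667). The share rose with depth, with a Spearman correlation over cells of 0.46, 0.63, 0.34 and 0.30 in the 4 libraries. That correlation is a description of cells that share a library.

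**Figure D4:**
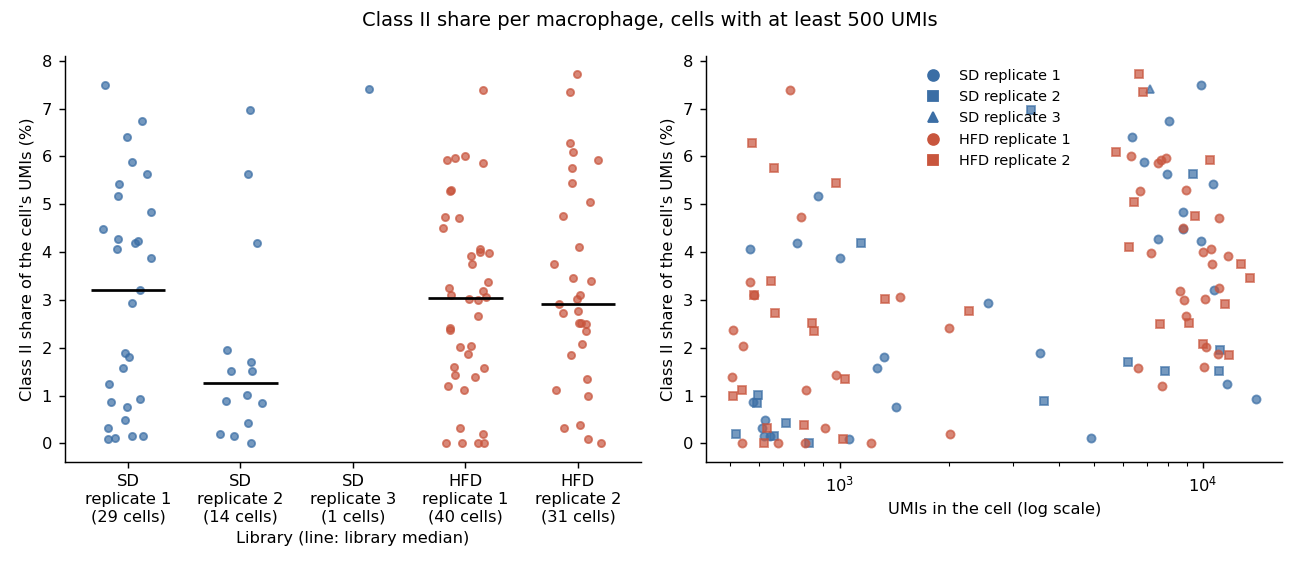
Class II share of UMIs (y axes, %) of the 115 macrophages with at least 500 UMIs, by library with the library median as a line (left) and against the cell's UMIs on a log axis (right). Every library but SD replicate 3, which has 1 such cell, spans from under 0.5% to about the top of the range, and nearly all cells under 0.5% are shallow.

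Among themselves, the members formed a tight core and a looser rim across these cells. Mean Spearman correlations of UMI shares over 114 cells, within libraries, were 0.79 to 0.87 for the 6 pairs among Cd74, H2-Aa, H2-Ab1 and H2-Eb1. With those 4 genes, H2-DMa and H2-DMb1 correlated at 0.37 to 0.50 and Ciita at 0.35 to 0.42. Cd83 correlated with them at 0.24 to 0.34 and Cd86 at 0.09 to 0.21. Cd86 and Cd83 correlated at 0.41 with each other. Low counts lower a correlation, and Ciita with 44 UMIs in these cells is the sparsest of the 9.

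Across 2178 other genes found in at least 20% of these cells, the mean correlation with the class II share had a median of 0.20. These cells share their library and differ in depth, which also correlated with the class II share. The highest were Cd48 (0.55), the tetraspanin Cd81 (0.54), the membrane protein Tmem176a (0.51), the ubiquitin ligase subunit Rbx1 (0.49), the granule proteoglycan Srgn (0.49), the RNA editor Apobec1 (0.49), Lilra5 (0.48) and Efr3a (0.48). After thinning these were 0.18 to 0.35. Ciita ranked 51 (0.41), Cd83 299 (0.32) and Cd86 1373 (0.17), and after thinning they were at 0.22, 0.22 and -0.04, so Cd86 changed sign. The lowest were Ctsb (-0.27), the alternatively activated macrophage product Retnla (-0.25), Gm42418 (-0.23), Ly6e (-0.23), the selenium carrier Selenop (-0.21), the eotaxin Ccl24 (-0.21), the folate receptor Folr2 (-0.17) and clathrin heavy chain Cltc (-0.16). All 8 of the highest were positive in each of the 4 libraries, and Ctsb, Retnla, Gm42418 and Ly6e were negative in each. The genes were picked by their mean over these same libraries, so this agreement in sign is no support. After thinning the lowest 8 ran from -0.31 (Retnla) to 0.03 (Cltc), with Selenop at -0.02, so Cltc changed sign.

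Macrophages of the 4 libraries were then split at the library's own median class II share, and UMIs outside the 6 class II genes were summed in 56 class II-high and 58 class II-low cells. The groups are ranges of a score and not cell types, and 12 cells lay within 0.25 percentage points of the split. With the library as a block, 4 of 874 genes passed edgeR's test (0.458%), all higher in class II-high cells. They were Ccr2, the chemokine receptor of monocytes and monocyte-derived macrophages, the calcium-binding protein genes S100a4 and S100a6, and the AP-1 subunit Jund. Passing genes were named only with 1 sign in all 4 libraries, so their agreement in sign is no added support. The median depth was 7354.5 UMIs in high and 1028.5 in low cells, so the comparison is given for deep cells alone beside each gene. In SD replicate 2 the 7 class II-low cells held 7539 UMIs in all. Many low values of that library therefore rest on few UMIs, such as 1 for Ccr2 and 2 for S100a6.

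Ccr2 was at 674, 514, 340 and 712 CPM in class II-high cells of SD replicates 1 and 2 and HFD replicates 1 and 2, and at 0, 133, 48.0 and 137 CPM in class II-low cells. It was higher in 4 of 4 libraries, with 182 against 13 UMIs in 28 against 6 cells (log2 3.07 ± 0.51, SE, adjusted p = 0.00163). Among macrophages with at least 3000 UMIs, where median depth was 7918 in high and 10078 in low cells of 3 libraries, Ccr2 was at 836, 330 and 797 CPM against 145, 133 and 324 CPM. There it was found in 18 of 25 against 7 of 27 cells (log2 1.69 ± 0.43, adjusted p = 0.0247). Ccr2 passed in 11 of 12 alternatives that tested it and did not pass without HFD replicate 1 (3.18, adjusted p = 0.191), where 0 genes passed. It did not differ beyond its error between diets in macrophages (log2 -0.37 ± 0.40, adjusted p = 0.943).

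Jund was at 3512, 7275, 4343 and 5011 CPM in class II-high cells and 2798, 2136, 2784 and 1964 CPM in class II-low cells of the same libraries. The log2 difference was 0.94 ± 0.21 (SE, adjusted p = 0.0292), and 0.90 ± 0.21 (adjusted p = 0.00699) among cells with at least 3000 UMIs. Jund passed in 4 of 14 alternatives, with estimates of 0.71 to 1.26 and adjusted p up to 0.54. It did not pass without SD replicate 2 (adjusted p = 0.214), HFD replicate 1 (0.540) or HFD replicate 2 (0.385). In SD replicate 1 those deeper cells did not differ, at 3397 CPM in high and 3399 CPM in low cells.

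S100a4 was at 241, 473, 529 and 331 CPM in class II-high cells and at 0, 0, 72.0 and 102 CPM in class II-low cells (log2 2.77 ± 0.54, SE, adjusted p = 0.00652). S100a6 was at 613, 719, 1020 and 458 CPM against 0, 267, 276 and 137 CPM (2.29 ± 0.45, adjusted p = 0.00652). Among cells with at least 3000 UMIs both estimates were below 0 without passing, to -1.18 ± 0.51 (adjusted p = 0.494) and -0.62 ± 0.45 (0.932). Of the S100a6 UMIs in these macrophages 1 cell held 65. Neither gene was shown to move with class II among deep cells.

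**Figure D5:**
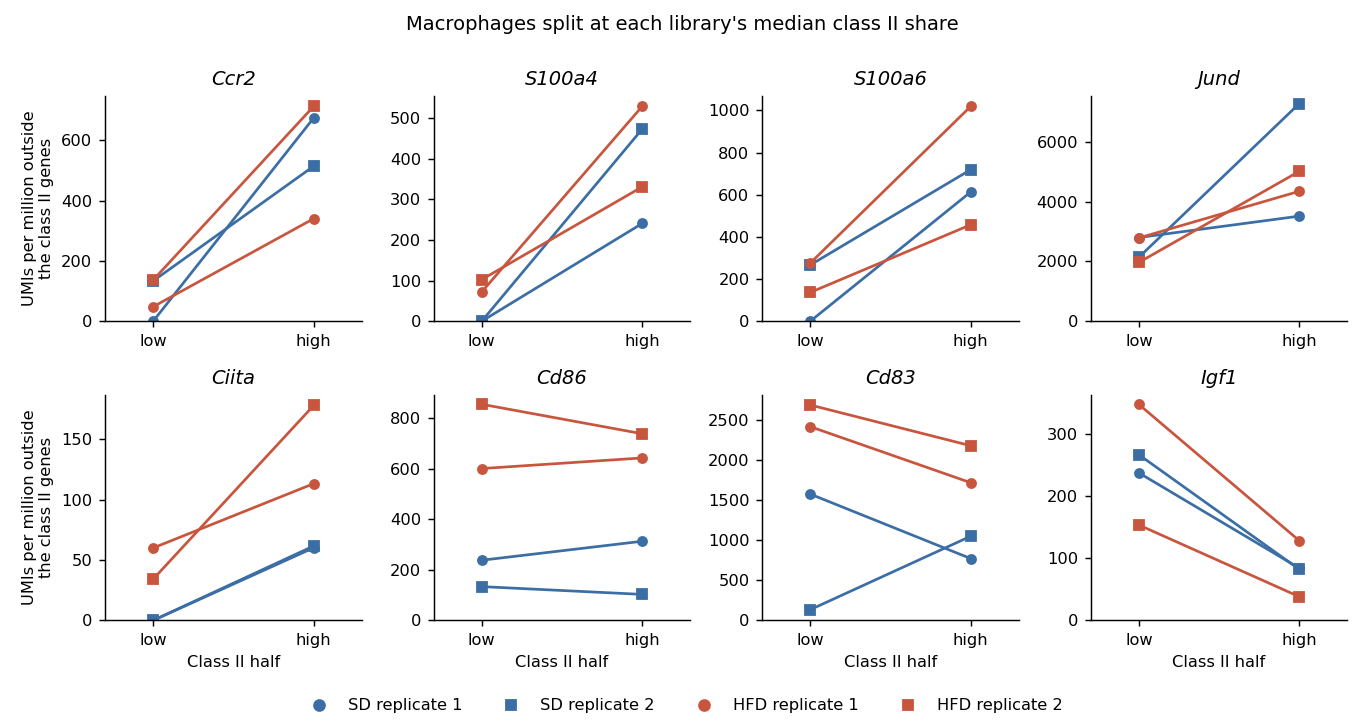
CPM outside the class II genes (y axes, linear, from 0) in class II-low and class II-high macrophages, 1 line per library (SD blue, HFD red). Ccr2, S100a4, S100a6 and Jund, named under a rule that asks for 1 sign in all libraries, are higher in high cells in 4 of 4. Ciita is also higher in 4 of 4 and Igf1 is lower in 4 of 4, while Cd86 and Cd83 have no common direction. High cells are also deeper, and among cells with at least 3000 UMIs S100a4 and S100a6 had estimates below 0, Ciita was lower in high cells of HFD replicate 2, and Igf1 was at -0.67 ± 0.60.

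No gene passed on the lower side. Among those of lowest p were the long noncoding RNA Lncpint (log2 -1.72), the growth factor Igf1 (-1.58), Litaf (-1.21) and Nr4a1 (-1.47), with adjusted p from 0.187 to 0.345. Igf1 was at 84.2, 82.2, 128 and 38.2 CPM in high cells and 238, 267, 348 and 154 CPM in low cells, lower in 4 of 4 libraries. The 267 CPM of SD replicate 2 came from 2 UMIs. Among cells with at least 3000 UMIs the log2 difference of Igf1 was -0.67 ± 0.60 (adjusted p = 0.963). Among cells with at least 3000 UMIs, 4 genes passed on the lower side (chosen after their values were seen): galectin-3 (Lgals3, -2.68 ± 0.53, adjusted p = 0.000515), Lncpint (-2.45 ± 0.55, 0.00381), Rgl1 (-2.09 ± 0.55, 0.0327) and the interferon response factor Irf1 (-1.85 ± 0.51, 0.0467). In those cells Lgals3 was at 54.5, 22.7 and 184 CPM in high and 275, 552 and 621 CPM in low cells of SD replicate 1 and HFD replicates 1 and 2.

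The 3 members outside the class II score behaved differently from each other in the split. Ciita had 5, 3, 15 and 14 UMIs in high cells and 0, 0, 5 and 2 in low cells, in 21 against 4 cells. These counts are not corrected for the greater depth of high cells. Among cells with at least 3000 UMIs, Ciita had 20 UMIs in 13 high cells and 17 UMIs in 7 low cells, at 90.8, 102 and 123 CPM against 0, 62.3 and 135 CPM in SD replicate 1 and HFD replicates 1 and 2, so HFD replicate 2 went the other way. In the split of all these macrophages Ciita was below the filter on low counts, and without the filter its log2 difference was 2.00 ± 0.75 (adjusted p = 0.994). Cd86 differed by 0.02 ± 0.33 (adjusted p = 0.996), and its sign changed between alternatives. Cd83 differed by -0.34 ± 0.30 (adjusted p = 0.891). The error of the Cd86 estimate leaves room for a difference in either direction.

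Lists of macrophage state genes gave few passing genes in the split. Of the monocyte list, Ccr2 and S100a4 were the 2 genes tested, and the list summed to 938 to 1148 CPM in high and 18.3 to 256 CPM in low cells; Ly6c2 and F10 were at 0 in all macrophages. Of the scavenger receptor list 8 of 10 tested genes had estimates below 0 (median -0.73, 0 passing, against -0.01 for all genes), Mrc1 among them (-0.35 ± 0.25). C1qa, C1qb and C1qc had estimates of 0.13, 0.28 and 0.24, with 0 passing. MHC class I genes had 3 of 5 estimates above 0, led by H2-K1 (0.62 ± 0.35) and H2-D1 (0.59 ± 0.29), with 0 passing. Of 8 class II partner genes tested, 0 passed, and Ctsb was at -0.65 ± 0.27. The dendritic cell list summed to 82.2 to 361 CPM in high and 68.3 to 420 CPM in low cells, higher in high cells in 2 of 4 libraries, and the neutrophil list was higher in high cells in 1 of 4. The B cell list was lower in high cells in 4 of 4 libraries (103 to 254 against 168 to 667 CPM), as was the cell cycle list (48.1 to 164 against 192 to 934 CPM). The fibroblast list was higher in 4 of 4 (50.9 to 123 against 0 to 36.6 CPM). None of these 3 lists had a gene that passed the filter on low counts, and their part in the split was not tested.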

How the data were processed

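Libraries were made with the 10x single cell 3′ v2 protocol, per the labels. The submitters' processing notes name Cell Ranger 3.1.0 and mm10. The authors deposited raw UMI counts per gene and cell, tables naming the library and cluster of every cell, and a mitochondrial percentage and a cluster number (a score without scale), per the file headers; these last 2 were not used. No source used here states how cells or doublets were filtered before deposit, and no doublet caller was run. Libraries called Ctrl in the tables were taken as SD. Separate animals are not named for the samples, hence p-values reflect only the spread among them, possibly technical.

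UMI counts were added up by library and analysed in R 4.3.3 by edgeR 4.0.16 (genes kept by filterByExpr, TMM scaling, robust quasi-likelihood fit, Benjamini-Hochberg adjustment at 0.05) over all cells, in macrophages (libraries with at least 10), and between class II-high and class II-low macrophages of at least 500 UMIs. All genes entered each fit, and standard errors are approximate. CPM are not TMM-scaled; in the class II split their base leaves out the 6 class II genes. Single values per library were compared by two-sided exact permutation tests. Thinning to 500 UMIs was repeated 200 times for the Fano factor and the standard deviation of the log2 share. The thinned correlations and the thinned class II split each used a single draw. Cells held 122 to 24932 UMIs. The scripts were tested on simulated counts. The alternatives included RLE scaling, DESeq2 1.42.0, no count filter, a replicate block, the project number as a term, and leaving out libraries or cells.

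Members, lists and tests were chosen with earlier results of these data known. Besides the 9 members, the text names passing genes of the class II split (up to 10 per direction with 1 sign in all libraries, otherwise the 5 of lowest p), the 8 highest and 8 lowest correlations, and up to 4 genes of each list by UMIs. Genes that meet this rule but are withheld are not reported here.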

Additional observations from a re-analysis of the deposited data

Results flagged for a closer look

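In 2 of 19 genes examined, 1 of 4 libraries stood apart from the others in the log2 ratio of class II-high to class II-low macrophages by Dixon's criterion, which chance meets in about 1 in 20 groups. S100a6 had a log2 ratio of 6.08 in SD replicate 1, where the low cells held 0 UMIs, against 1.13 to 1.86 in the other 3 libraries. Mrc1 had a log2 ratio of 1.10 in SD replicate 2, where the low cells held 5 UMIs, against -0.69 to -0.48 in the others.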

How the results depend on the processing

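Over all cells, where 5 genes passed between diets, 9 passed with DESeq2, 47 without the count filter, 57 with the project number as a term, 0 without cells holding neutrophil or erythroid UMIs (172 at an unadjusted p under 0.05) and, chosen after seeing the data, 1 without all macrophages. Leaving out 1 library gave 0 (without SD replicate 1, 314 unadjusted) to 54 (without HFD replicate 2), with 2, 3 and 8 without SD replicates 2 and 3 and HFD replicate 1. In macrophages, where 1 gene passed, 4 passed without the count filter, 0 without cells holding dendritic or B cell UMIs (21 unadjusted, 505 genes tested), and 2 to 26 with 1 library left out (26 without SD replicate 1, 2 without SD replicate 2, 17 without HFD replicate 1, 4 without HFD replicate 2). In the class II split, where 4 passed, 20 passed without the count filter, 1 with the outer tertiles, 1 from 1000 UMIs per cell, 1 without cells holding dendritic or B cell UMIs (206 genes tested), 1 after thinning (121 genes tested), and 0 (without HFD replicate 1, 37 unadjusted) to 5 with 1 library left out. The causes were not tested.

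With the replicate number as a block, 64 genes passed over all cells and 5 in macrophages, Cd86 (adjusted p = 0.00987 and 0.0369) in both and Cd83 (0.0121) over all cells. Same-numbered libraries had correlations of deviations of 0.27 and -0.09 over all cells and -0.04 for each pair in macrophages. With 2 HFD libraries the deviations of these are equal and opposite. The correlations therefore cannot show whether same-numbered samples were paired. Without the replicate block (here the library), which was added after seeing the data, 2 genes passed in the class II split and Cd86 was -0.18.

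Estimates that changed sign were these. In macrophages between diets, Cd74 was -0.0061 with the project number, and with at least 3 cells per library Cd74 was -0.0227, H2-Aa -0.10, H2-Ab1 -0.0918 and H2-DMb1 -0.0115. With 1 library left out, Cd74 ran from -0.23 to 0.43, H2-Aa from -0.11 to 0.59, H2-Ab1 from -0.21 to 0.61, H2-Eb1 from -0.24 to 0.70 and H2-DMa from -0.46 to 0.15. The difference in median class II share ran from -0.229 (without SD replicate 2) to 1.72 percentage points (without SD replicate 1). In the class II split, Cd86 was -0.28 with outer tertiles and -0.45 from 3000 UMIs, and -0.0643 to 0.18 with 1 library left out. Cd83 was 0.21 with outer tertiles and 1.42 without dendritic or B cell UMIs, where Mrc1 was 0.0734. From 3000 UMIs, a limit chosen after seeing the data, S100a6 was -0.62 and S100a4 -1.18. C1qa ran from -0.0243 to 0.23 with 1 library left out. Of the other single-gene values, 405 kept their direction and side of the threshold, 9 came to pass and 19 no longer passed. Small libraries and shallow cells limit all of these values.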
